A study of Gossypium hirsutum with 2 samples.

Results

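Tubulin transcripts were compared between 2 RNA-seq libraries of upland cotton (Gossypium hirsutum), both taken at 10 days post anthesis. The members were all unigenes (the named transcript sequences of the deposited tables) whose annotation text contains the word tubulin, without texts of microtubule-associated proteins. This took in 136 of 136262 unigenes: 31 alpha-tubulins, 41 beta-tubulins, 3 gamma-tubulins, 12 proteins of the gamma-tubulin complex, 24 folding cofactors, 3 tubulin-tyrosine ligases and 22 with other tubulin text. The cultivar Xuzhou142, a wild type with normal fiber growth, gave the first sample, its fiber (WT fiber). The second (FL ovule) was ovule of XZ142FLM, genotype li3li3n2n2, a line with hairless seeds on which few fibers develop. There was 1 library per group, so no difference below has a replicate check, and tissue and genotype differed together and cannot be told apart. The libraries are called WT and FL below, where WT always means fiber of the wild type and FL always means ovule of the mutant line.

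Microtubules are hollow polymers of alpha-beta tubulin dimers. Gamma-tubulin and its complex partners start new microtubules, and folding cofactors assemble the alpha-beta dimer after chaperonins have folded its subunits. Cotton fibers are single, very long cells of the seed coat epidermis, and their cortical microtubules are known to guide where cellulose is laid into the wall.

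WT had 45.6 M reads and FL 53.4 M reads. Levels are given as RPKM, reads per kilobase of unigene per 1000000 reads of the library. At these depths 1 read on a unigene of 1000 bases equals 0.0219 RPKM in WT and 0.0187 RPKM in FL, and a count of 0 allows up to 0.0658 and 0.0562 RPKM there. Members that reached 1 RPKM in either library were called measured. A member was counted as higher in a library when log2((RPKM in WT + 1) / (RPKM in FL + 1)), called the ratio below, was at least 1 in size. Folds of single unigenes are ratios of RPKM without that added 1, with 95% intervals in brackets that are exact (Clopper-Pearson), are computed from both read counts and reflect counting error alone. Tubulins are a family of near-identical copies, several unigenes can come from 1 gene, and reads may have been divided among them, so the value of a single unigene is uncertain in that respect.

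The fiber and ovule labels were set against marker texts. Of 89 measured fiber texts (fiber proteins, fasciclin-like arabinogalactan proteins, alpha expansins, PROTODERMAL FACTOR texts), 31 were at least 2-fold higher in WT and 14 in FL, and their summed RPKM was 19037 against 1879. These counts are shares of 34.8% and 15.7%, and 4 unigenes held 74.8% of the fiber sum in WT. Of 105 measured texts of dividing cells, 7 were higher in WT and 60 in FL, with 1376 RPKM in sum against 5376. These are texts that name a histone, a mitotic cyclin or cyclin-dependent kinase B, so enzymes that act on histones may be among them. Seed coat texts, mainly chalcone synthase, were higher in FL in 11 of 13 cases and in WT in 1, with 842 RPKM against 4341. Embryo and endosperm texts were higher in WT in 11 and in FL in 13 of 45 cases (835 and 503 RPKM in sum), green tissue texts in 9 and 16 of 78 (1222 and 760 RPKM) and vascular texts in 1 and 4 of 18 (43.7 and 51.5 RPKM). No seed coat text was at 0 reads in either library, and 12 of 149 texts of dividing cells were at 0 in WT. The part of these cell types in the tubulin values was not tested. Fewer cells of a type and less RNA per cell cannot be told apart in such bulk samples.

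Tubulin transcripts took 3.28% of all reads in WT and 0.706% in FL. Almost all of this was alpha- and beta-tubulin. Summed over the 31 alpha-tubulins the level was 21816 RPKM in WT and 5004 RPKM in FL, a 4.36-fold difference. Summed over the 41 beta-tubulins it was 9407 and 3505 RPKM, a 2.68-fold difference. Gamma-tubulins, by contrast, summed to 69.6 and 50.1 RPKM, the gamma-tubulin complex to 12.3 and 15.0 RPKM, and the folding cofactors to 83.4 and 81.6 RPKM. The subunits that build the polymer were thus the classes with the large differences between these libraries. The summed levels of nucleating and folding factors differed by less than 1.5-fold with RPKM as deposited. The polymer subunits were also by far the most abundant classes. Highly abundant unigenes of any kind were often higher in WT: 48.8% of the 1297 reaching 100 RPKM, against 10.5% of all 63258 measured. The shares higher in FL were 18% and 15.3%. Whether the contrast between classes goes beyond their levels was not tested.

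**Figure D1:**
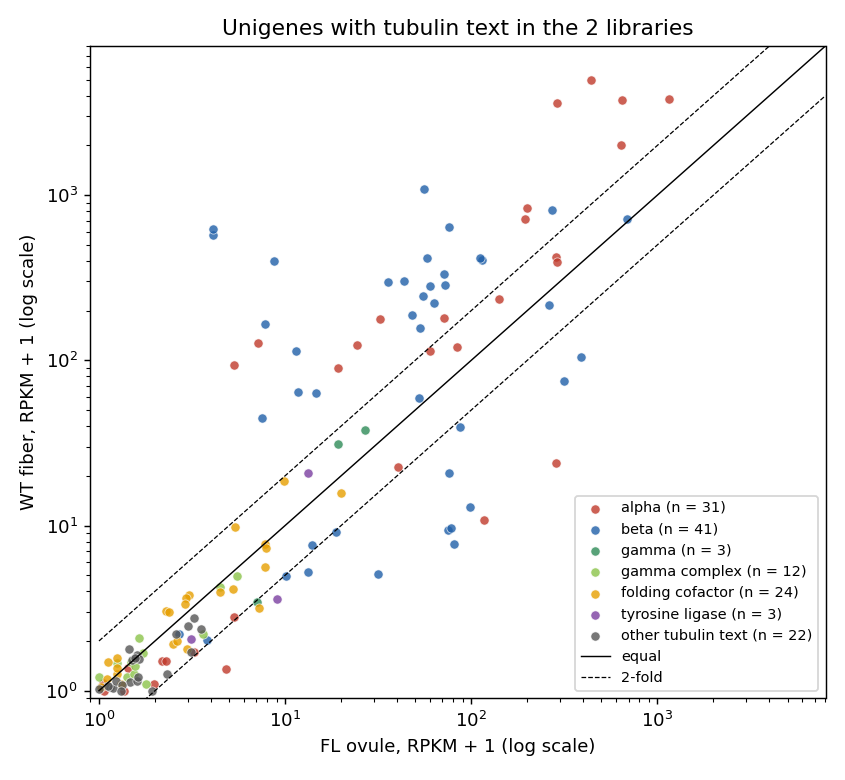
RPKM + 1 of each of the 136 unigenes in FL ovule (x axis) and WT fiber (y axis), both on log scales, coloured by class; the solid line marks equal values and the dashed lines 2-fold differences. The alpha-tubulins reach 4948 RPKM in WT fiber, beta-tubulins spread on both sides of the lines, and gamma-tubulins and cofactors lie near the solid line at low levels.

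Both subunit classes held members higher in either library. Of 26 measured alpha-tubulins, 13 were at least 2-fold higher in WT, 3 were at least 2-fold higher in FL and 10 were neither. All 41 beta-tubulins were measured, and 23 were higher in WT, 12 in FL and 6 neither. Over all 63258 measured unigenes 10.5% were higher in WT and 15.3% in FL. Among the 1297 unigenes that reached 100 RPKM in a library, the range of many tubulins, these shares were 48.8% and 18%. The median ratio was 1.13 for alpha, 1.81 for beta, -0.39 for all measured unigenes and 0.96 for unigenes at 100 RPKM or more. RPKM depends on the library total, of which the 30 most-read unigenes took 21.1% in WT and 38.5% in FL. With totals that leave these out (the reduced totals), the median of all measured unigenes was -0.69 and the alpha counts were 12 and 6; with a common RPKM sum it was 0.00216 and the alpha counts were 18 and 3. The 23 beta-tubulins higher in WT were so under all 5 scalings, as were 8 of the 12 higher in FL.

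**Figure D2:**
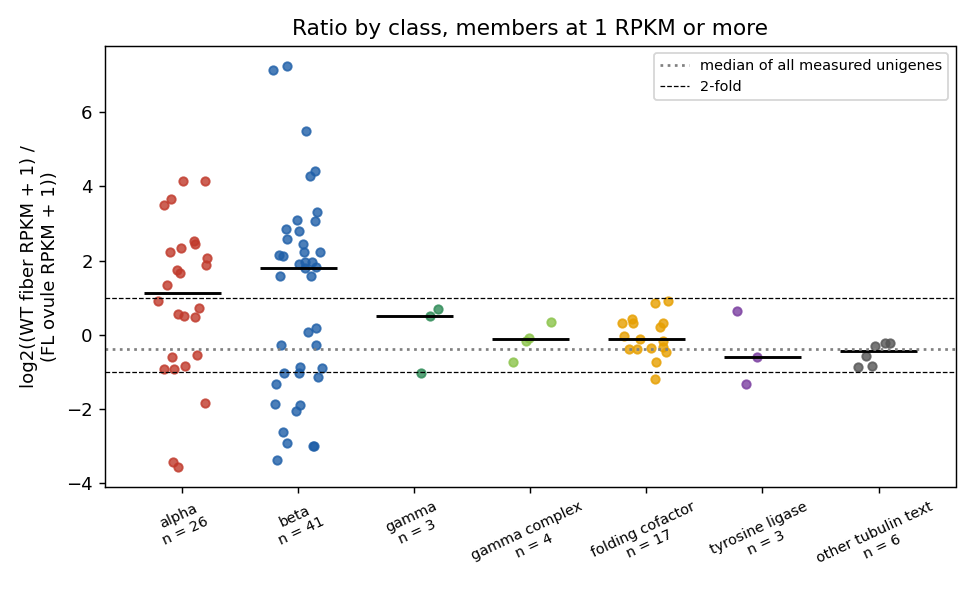
Ratio (log2, WT fiber over FL ovule, RPKM + 1) of each measured member by class, with black bars at the class medians, a dotted line at the median of all 63258 measured unigenes and dashed lines at 2-fold. Alpha ratios run from -3.56 to 4.15 and beta ratios from -3.39 to 7.25, while the 17 measured folding cofactors stay between -1.19 and 0.91.

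A few alpha-tubulins carried most of the class. Unigene0082638 had 4948 RPKM in WT, the rank of 11 among all unigenes there, and 439 RPKM in FL, an 11.3-fold difference (11.1 to 11.4). Unigene0082639 had 3836 RPKM in WT and 1152 RPKM in FL, where it was the most abundant alpha-tubulin, a 3.33-fold difference (3.30 to 3.35). Unigene0146497 had 3747 and 643 RPKM and was 5.83-fold higher in WT (5.78 to 5.88). The order of these members was not the same in both libraries. Unigene0087630, with 3619 RPKM in WT and 287 in FL, showed a 12.6-fold difference (12.4 to 12.9). All 4 carry the same text, alpha-tubulin of Gossypium hirsutum, and together they held 74.0% of the alpha sum in WT.

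The next alpha-tubulins by level were also higher in WT. Unigene0082637 had 1996 RPKM in WT and 633 in FL (3.15-fold, 3.10 to 3.22). Unigene0088249 had 832 and 197 RPKM (4.22-fold, 4.04 to 4.40). Unigene0088250, the alpha-tubulin 1 text of cotton, had 712 and 193 RPKM (3.69-fold, 3.58 to 3.80). The largest alpha ratios belonged to less abundant members. Unigene0009470, an alpha-5 text, had 127 RPKM in WT and 6.18 in FL, a 20.5-fold difference (17.2 to 24.5). Unigene0009471, an alpha-tubulin 1 text of rubber tree (Hevea brasiliensis), had 92.9 and 4.34 RPKM, a 21.4-fold difference (16.0 to 29.4).

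Alpha-tubulins higher in FL were few. Unigene0045214 had 23.0 RPKM in WT and 283 RPKM in FL, 12.3-fold higher there (11.5 to 13.2). Unigene0045213 had 9.80 and 116 RPKM, 11.8-fold higher in FL (10.8 to 13.0). Both have the same text as the 4 most abundant alpha-tubulins, so annotation text alone did not separate members that leaned in opposite directions. Unigene0040932, the remaining one, rested on 4 reads in WT and 52 in FL. Unigene0047357, below 2-fold, had 21.5 and 39.3 RPKM.

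A group of abundant alpha-tubulins differed little with RPKM as deposited. Unigene0047356, an alpha-3 text, had 419 RPKM in WT and 285 in FL (1.47-fold, 1.43 to 1.52). Unigene0047359, an alpha-5 text, had 395 and 286 RPKM (1.38-fold, 1.33 to 1.44). Unigene0047355 had 233 and 141 RPKM, and Unigene0047360 had 119 and 82.6 RPKM. These lay at 1.38-fold to 1.65-fold towards WT and passed 2-fold in neither direction as deposited. With the common RPKM sum all of them passed 2-fold towards WT, with ratios of 1.09 to 1.34. The 5 alpha-tubulins that were not measured had under 1 RPKM in both libraries; 2 of them had no read in WT and 6 and 2 reads in FL.

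The largest ratios of all tubulins lay in beta-tubulins numbered Unigene0066683 to Unigene0066687. Beta-tubulin 1 of cotton is known for transcripts abundant in fiber. Its text marked Unigene0066687, with 621 RPKM in WT and 3.07 in FL (202-fold, 165 to 249), and Unigene0066683, with 573 and 3.08 RPKM (186-fold, 150 to 233). The beta-6 text Unigene0066684 had 397 RPKM in WT and 7.74 in FL, a 51.3-fold difference (47.5 to 55.6). Unigene0066685, with the text tubulin beta-1, was the most abundant beta-tubulin in WT at 1088 RPKM and had 54.7 in FL, a 19.9-fold difference (19.4 to 20.5). Unigene0066686, with the same text, had 165 and 6.80 RPKM (24.2-fold, 22.4 to 26.2). All 5 were more than 16-fold higher in WT by the ratio, a mark passed by 0.425% of all measured unigenes, and no beta-tubulin outside this run of numbers passed it. Together they held 2843 RPKM in WT and 75.4 RPKM in FL, a 37.7-fold difference.

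Outside that run, 4 of the 8 most abundant beta-tubulins were higher in WT by smaller folds. Unigene0057480, beta-tubulin 4, had 813 RPKM in WT and 271 in FL (3.002-fold, 2.95 to 3.05). Unigene0060530, beta-tubulin 14, had 643 and 74.7 RPKM (8.61-fold, 8.25 to 8.998). Unigene0057476, also beta-tubulin 14, had 416 and 57.02 RPKM (7.30-fold, 6.999 to 7.62). All 3 members with the beta-tubulin 14 text were on the WT side, with ratios of 2.85 to 3.30. Unigene0057479, beta-tubulin 11, had 416 and 110 RPKM (3.78-fold, 3.63 to 3.94). The pairs of members with beta-tubulin 10, 11, 17 and 4 texts were likewise all past 2-fold towards WT.

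A different set of beta-tubulins was higher in FL. Unigene0060526, beta-tubulin 16, had 6.72 RPKM in WT and 79.7 in FL, 11.9-fold higher there (9.77 to 14.5). Unigene0060523, with the same text, had 4.06 and 30.5 RPKM (7.51-fold, 6.03 to 9.45). Unigene0060524 and Unigene0060522, with a beta-tubulin text of longan (Dimocarpus longan), were 8.79-fold (7.22 to 10.8) and 8.81-fold (7.28 to 10.7) higher in FL. These members were all near 4 to 9 RPKM in WT and 30 to 80 RPKM in FL. Unigene0060531, a beta-8 text, had 12.0 RPKM in WT and 97.1 in FL (8.12-fold, 6.78 to 9.79). The most abundant members on this side were Unigene0038469, a beta-8 text with 104 and 387 RPKM, and Unigene0038470, with 73.8 and 313 RPKM. These last 2 and Unigene0038468 (beta-tubulin 19, 19.9 and 75.1 RPKM) were chosen for naming after their values were seen. The fold count on this side depended on the threshold, since 12 of the 41 beta-tubulins passed 2-fold and 6 of the 41 passed 4-fold. Over all measured unigenes the shares on that side were 15.3% and 2.19%. The beta-tubulins named in this paragraph were short, at 242 to 486 bases. Of the 20 beta-tubulins of 500 bases or longer, 2 were at least 2-fold higher in FL and 16 in WT.

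Some beta-tubulins were abundant in both libraries. Unigene0057483, a longan-type beta-tubulin text, was the most abundant beta-tubulin of FL, with 682 RPKM there and 712 in WT (1.04-fold, 1.02 to 1.07). Unigene0057474, beta-tubulin 2, had 216 RPKM in WT and 261 in FL, 1.20-fold higher in FL (1.17 to 1.24). Unigene0060527, beta-tubulin 15, had 58.2 and 51.5 RPKM (1.13-fold towards WT, 1.07 to 1.19). The direction of these 3 changed with the scaling of the libraries, as their ratios ran from -0.30 to 0.69, from -0.63 to 0.36 and from -0.18 to 0.79 over the 5 scalings. Unigene0022645, beta-tubulin 13, was lower, with 6.58 and 12.9 RPKM. Among the 12 beta-tubulins counted as higher in FL, the one nearest the 2-fold mark was Unigene0068305, whose text names the beta-tubulin of an oomycete, Pseudoperonospora cubensis, with 3.95 and 9.15 RPKM. It was 2.32-fold higher in FL (1.999 to 2.69), with a ratio of -1.04, and lost the 2-fold mark under the common RPKM sum and the upper quartile scaling.

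Members with consecutive unigene numbers mostly shared a direction. This grouping was chosen after the values were seen, and the sources used here do not say what consecutive numbers mean. Runs of at least 2 consecutive numbers held 28 of the 31 alpha-tubulins in 8 runs and 35 of the 41 beta-tubulins in 6 runs. None of the 8 alpha runs and 1 of the 6 beta runs had members past 2-fold in both directions. Runs with fewer than 2 members past 2-fold could not show this. These were the runs from Unigene0047355, Unigene0057322 and Unigene0031933, with 0 such members each, and from Unigene0040931, with 1. The run from Unigene0087627 to Unigene0087631 had 5 of 5 alpha-tubulins higher in WT, with 4187 against 430 RPKM in sum. The run from Unigene0047355 to Unigene0047360 had 0 of 6 past 2-fold as deposited, with 1301 against 893 RPKM. Most of its members passed 2-fold towards WT with the common RPKM sum.

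**Figure D3:**
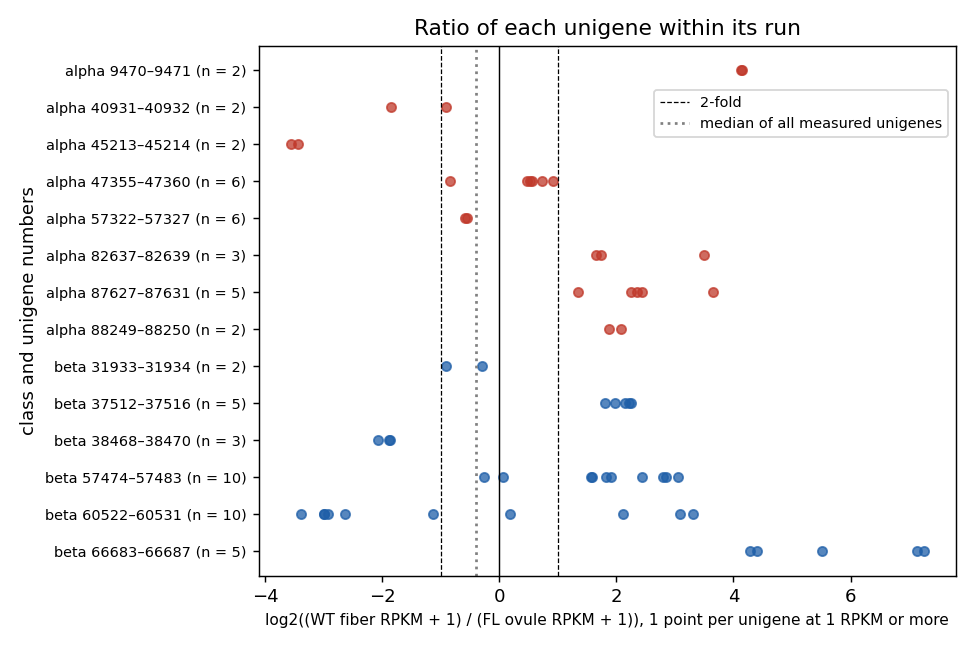
Ratio (log2, WT fiber over FL ovule, RPKM + 1) of each measured alpha (red) and beta (blue) unigene, 1 line per run of consecutive numbers, with n the run's size, the solid line at equality, dashed lines at 2-fold and the dotted line at the median of all measured unigenes. The beta run 66683–66687 lies between 4.29 and 7.25, the beta run 38468–38470 between -2.07 and -1.86, and the beta run 60522–60531 reaches from -3.39 to 3.30.

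The beta runs fell into different patterns. The run from Unigene0037512 to Unigene0037516 had all 5 members higher in WT, within a narrow band of ratios from 1.81 to 2.24 and with 1543 against 369 RPKM in sum. The run from Unigene0038468 to Unigene0038470 had all 3 higher in FL, with 198 against 775 RPKM. The run from Unigene0057474 to Unigene0057483, the most abundant beta run in both libraries with 3613 and 1582 RPKM, had 8 of 10 higher in WT and 2 neither. The run from Unigene0060522 to Unigene0060531 was the mixed one, with 3 higher in WT, 6 in FL and 1 neither. Its members higher in WT carried beta-tubulin 14 and 17 texts, and those higher in FL carried beta-tubulin 15, beta-tubulin 16, beta-8 and longan-type texts.

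**Figure D4:**
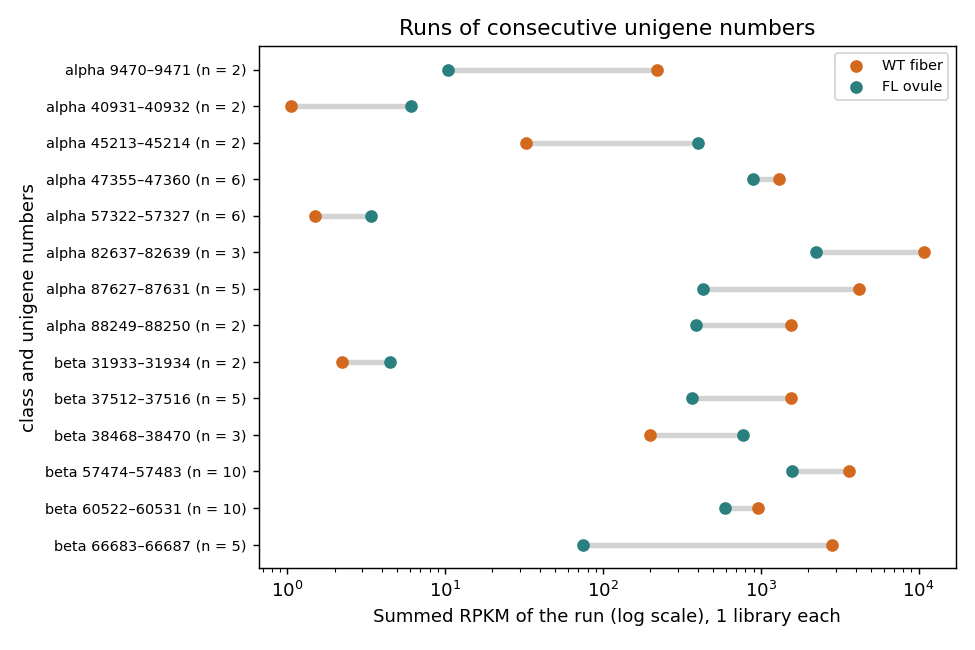
Summed RPKM of each run of consecutive unigene numbers in WT fiber (orange) and FL ovule (teal) on a log axis, 1 library each, with n the number of unigenes in the run. The alpha run 82637–82639 has the highest sums, 10781 against 2225 RPKM, and the widest gap is in the beta run 66683–66687, 2843 against 75.4 RPKM.

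Alpha-tubulin stood above beta-tubulin in both libraries when all members were summed. The alpha sum was 2.32 times the beta sum in WT and 1.43 times in FL, a comparison within each library that does not depend on its read total. It depended on which unigenes were summed. Over members of 500 bases or longer (18 alpha, 20 beta) the values were 2.79 and 2.79, and over members of 1000 bases or longer (6 and 6) they were 5.07 and 5.99. With 1 unigene, the longest, per annotation text (12 alpha, 25 beta) they were 0.367 and 0.535, so that beta stood above alpha. That rule kept Unigene0087628 (89.4 RPKM in WT) for the text shared by the most abundant alpha-tubulins. Those were left out, and the alpha sum in WT fell from 21816 to 2116 RPKM. Alpha thus stood above beta at every length cut, and the order reversed only under that rule. A shift of their balance between the libraries was not a stable measurement.

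The 3 gamma-tubulins differed by at most 2.49-fold. Unigene0095474, a gamma-1 chain text, had 36.8 RPKM in WT and 25.7 in FL (1.43-fold, 1.34 to 1.53). Unigene0144407 had 30.3 and 18.3 RPKM (1.66-fold, 1.54 to 1.78). The third, Unigene0095473, was lower and went the other way, with 2.44 and 6.06 RPKM (2.49-fold higher in FL, 2.05 to 3.03). Its ratio of -1.04 lay just past the 2-fold mark and ran from -1.41 to -0.54 over the scalings. With the common RPKM sum, the other 2 passed 2-fold towards WT.

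Proteins of the gamma-tubulin complex, which hold gamma-tubulin in the ring that nucleates microtubules, were low in both libraries. Only 4 of 12 reached 1 RPKM, and 0 of these 4 passed 2-fold in either direction as deposited (1 towards FL with the reduced totals). The highest, Unigene0141922, had 3.94 RPKM in WT and 4.51 in FL (1.15-fold higher in FL, 1.02 to 1.28), but its ratio ran from -0.48 to 0.34 over the scalings. Unigene0114961 had 3.22 and 3.49 RPKM, with an interval that included equality, and also changed sign between scalings. Unigene0092423 had 1.19 and 2.64 RPKM, a ratio of -0.73, and Unigene0135336 had 1.08 and 0.640 RPKM. All 12 together had 0.00290% of the reads in WT and 0.00350% in FL.

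Folding cofactors showed no broad difference. Of 24 members 17 were measured, of which 0 were higher in WT and 1, Unigene0098221 (2.19 and 6.27 RPKM), in FL. Over all measured unigenes these shares were 10.5% and 15.3%. The cofactor counts were 2 and 0 with the common RPKM sum and 0 and 2 with the reduced totals. The 12 members with the C domain text summed to 45.2 RPKM in WT and 58.6 in FL, with a median ratio of -0.35 over the 11 measured, against -0.39 for all measured unigenes. That text names a domain, and whether these members fold tubulin was not tested. The other 12, texts of cofactor B, cofactor C, a chaperone D and an unnamed folding cofactor, summed to 38.2 and 23.0 RPKM, with a median of 0.36 over the 6 measured. The difference between these 2 groups of texts was not tested. Most of these ratios are small, and 7 of the 17 changed sign between scalings.

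The best-expressed members of this class illustrate this. Unigene0098219, a C domain text, had 14.7 RPKM in WT and 18.9 in FL (1.29-fold higher in FL, 1.11 to 1.49). Unigene0105733, another such text, had 6.30 and 6.90 RPKM, with an interval that included equality. Unigene0088678, a chaperone D text, had 17.5 and 8.89 RPKM (1.97-fold higher in WT, 1.65 to 2.37). In yeast and mammals cofactor D is known to act on beta-tubulin and cofactor B on alpha-tubulin during dimer assembly. The cofactor B text Unigene0071635 had 8.81 and 4.38 RPKM (2.01-fold, 1.67 to 2.43, with a ratio of 0.87), while the longer Unigene0071634 with the same text had 2.79 and 2.05 RPKM.

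Tubulin-tyrosine ligase, which in mammals restores the terminal tyrosine of alpha-tubulin, had 3 texts. Unigene0081534 had 19.8 RPKM in WT and 12.2 in FL. Unigene0081531 had 2.57 and 8.06 RPKM, at least 2-fold higher in FL except under the common RPKM sum. Unigene0081532 had 1.05 and 2.13 RPKM.

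The 22 remaining texts were low. Of these, 13 name the tubulin/FtsZ family and all 13 carry the pathway term for the cell cycle of the bacterium Caulobacter; FtsZ is the tubulin relative that divides bacteria and plastids. Only 4 of the 13 were measured, between 1.58 and 2.54 RPKM in FL. Another 7 have Misato or myosin-like texts and 2 a tubulin family text, of which 2 and 0 were measured. The 6 measured members had ratios from -0.86 to -0.22, with a median of -0.44 against -0.39 for all measured unigenes. None of the 6 passed 2-fold as deposited, 2 did towards FL with the reduced totals, and 3 changed sign between scalings.

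A shared annotation that the choice of members did not use was the set of pathway terms. The terms Phagosome, Gap junction and Pathogenic Escherichia coli infection stood together on 24 of 31 alpha-tubulins and 40 of 41 beta-tubulins, and on none of the other 64 members. Outside the tubulin texts they occurred together on 1 unigene, Unigene0037511, whose number precedes the beta run from Unigene0037512. It had 351 RPKM in WT and 70.1 in FL, with a ratio of 2.31.

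Other microtubule genes showed a different balance of counts from the alpha- and beta-tubulins, in a comparison not matched for level. These counts depended on the scaling, as did those of all measured unigenes. Of the latter, 10.5% were higher in WT and 15.3% in FL as deposited, 17.9% and 6.26% with the common RPKM sum, and 8.58% and 33.1% once the 30 most-read unigenes were removed from the totals. Of 111 measured kinesins, the motors that move along microtubules, 14 were higher in WT and 28 in FL as deposited, 25 and 16 with the common sum, and 13 and 43 with the reduced totals. Of 100 measured microtubule-associated and plus-end proteins, which bundle, sever or stabilise microtubules, 8 were higher in WT and 40 in FL, against 14 and 22, and 7 and 49, under these scalings. Their summed RPKM leaned the other way, 1470 against 1183, but 1 unigene held 31.0% of the WT sum. This was Unigene0141931, with 455 RPKM in WT and 50.5 in FL. Subunits of the CCT chaperonin, which folds tubulin and actin, were higher in each library in 1 of 25 cases (8 and 0 with the common sum, 1 and 2 with the reduced totals). Prefoldin, which delivers them to it, had 0 and 1 of 13 (5 and 1, and 0 and 1). Actin texts, the other main filament system, had 27 and 14 of 120 (40 and 5, and 26 and 30). Cellulose synthase texts had 14 and 14 of 59 (23 and 8, and 12 and 21), and their summed RPKM was 1457 in WT and 795 in FL.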

How the data were processed

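Each library had 1 deposited table. Its counts, as deposited, are unique reads assigned to each unigene (per the file headers) and add up to the total printed there. Its RPKM values, also deposited by the authors, equal count over length and total to within 5.11e-15 in relative terms. Bowtie and Bowtie2 are named in the submitters' processing notes without roles. Assembler, annotation database, build, strand and the treatment of reads that match several unigenes are, in the sources used here, not given, nor whether the reads come from the oligo-dT or the ribosomal-RNA-depleted part.

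Tables were joined on unigene (absent: 0 reads) in Python 3.11.15 with pandas 2.3.3 and SciPy 1.17.1. With 1 library per group no test was possible. Intervals cover counting error only, and without molecular identifiers single reads need not be single molecules. The ratio and interval code was tested on simulated counts.

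Classes came from annotation text. Named for alpha and beta, at 5 RPKM or more, were the 8 most abundant, the 5 largest ratios each way and the 5 nearest 0, plus the measured members of the gamma and cofactor classes, of which the 4 most abundant have full values. Members, lists and rules were chosen with earlier results of these data known. Scalings, pseudocounts, filters, fold, length and 1 unigene per text were varied.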

Additional observations from a re-analysis of the deposited data

How the results depend on the processing

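No paired analysis was possible because each group has 1 library, and no library could be left out for the same reason. The count of alpha-tubulins higher in WT (13 of 26 measured) was 6 of 12 with 1 unigene per annotation text. The alpha count in FL (3 of 26) became 7 of 26 with a pseudocount of 0.1. It was 6 of 26 with the 30 most-read unigenes taken out of the totals and 1 of 12 with 1 unigene per text. The count of beta-tubulins higher in WT (23 of 41) was 14 of 25 with 1 unigene per text. That in FL (12 of 41) was 6 of 41 at 4-fold, 6 of 25 with 1 unigene per text and 2 of 20 at 500 bases or longer. Taking 1 unigene per text, or a minimum length, also left fewer members to count. The other alternatives kept these 4 counts within 1.5 times. The log2 ratio of summed RPKM stayed above 0 throughout. For alpha (2.12) it was 2.75 with the common RPKM sum, 1.98 with the median ratio, 2.25 with the upper quartile, 1.77 without the 30 most-read unigenes in the totals, 1.29 with 1 unigene per text, 2.39 at 500 bases or longer and 1.75 without the 3 most-read members. For beta (1.42) these were 2.05, 1.28, 1.55, 1.07, 1.83, 2.39 and 1.16. The ratio of the alpha to the beta sum, with lengths and collapsing chosen after seeing the data, was 0.367 in WT and 0.535 in FL with 1 unigene per text, which keeps 1 of the unigenes with the text of the abundant alpha-tubulins. The scalings changed every ratio of a library pair by 1 common factor, so, apart from the added 1, differences among members do not depend on them. Reads on the weakest measured members number under 20 in a library, which limits their folds.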

Other observations

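The members named in this paragraph were chosen after their values were seen, and some belong to runs described above. A further 14 beta-tubulins were at least 2-fold higher in WT, with levels of 44.0 to 401 RPKM in WT against 6.47 to 113.6 RPKM in FL. Unigene0060528, a further beta-tubulin 14 text, had 112 RPKM in WT and 10.5 in FL, a 10.7-fold difference with a counting interval of 9.58 to 12.0. Unigene0057482, a partial beta-tubulin text, had 296 and 34.6 RPKM and was 8.56-fold higher in WT (7.78 to 9.42). The 5 members of the run from Unigene0037512 were close to each other, at 243 to 401 RPKM in WT and 54.0 to 113.6 in FL. Of the 4 remaining alpha-tubulins past 2-fold towards WT, all in the run from Unigene0087627, the levels were 89.4 to 179 RPKM in WT and 18.1 to 70.1 in FL. Unigene0087627 was the least different of them (2.55-fold, 2.45 to 2.66), and its ratio of 0.99 with totals lacking the 30 most-read unigenes was below 2-fold. On the FL side, Unigene0060529, a beta-tubulin 15 text, had 38.6 RPKM in WT and 86.4 in FL, whereas Unigene0060527 with that text was near equality.

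The most abundant unigenes of the other microtubule lists also differed in direction. A microtubule-associated protein named after the fly protein futsch, Unigene0141931, had 455 RPKM in WT and 50.5 in FL, with a ratio of 3.15. SPIRAL1-like proteins help to orient cortical microtubules in Arabidopsis, and Unigene0045136 with such a text had a ratio of 0.014, with 239 RPKM in WT and 237 in FL. The kinesins Unigene0106529 and Unigene0107509 had ratios of 1.70 and 1.59 towards WT, while the kinesin Unigene0134765 had 14.5 RPKM in WT and 28.9 in FL.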
